A study of Homo sapiens with 6 samples.

Results

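The UGT1A glucuronosyltransferases are 9 genes (*UGT1A1*, *UGT1A3*, *UGT1A4*, *UGT1A5*, *UGT1A6*, *UGT1A7*, *UGT1A8*, *UGT1A9* and *UGT1A10*) of the 60480 gene identifiers counted in OE-19 cells, and they were taken by symbol. The rise of *UGT1A10* after IGF2BP3 KD prompted the choice of the family, so the contrast of *UGT1A10* is described here and carries no test. OE-19 is an established line of adenocarcinoma of the esophagogastric junction (AEG), grown here in RPMI1640 with serum and antibiotics. Poly(A) RNA was sequenced from 3 control libraries (a control knockdown, also labelled Puro) and from 3 IGF2BP3 KD libraries, in which an shRNA lowered *IGF2BP3*, an RNA-binding protein that reads m6A. Libraries are named by the replicate number in their labels (control 1, KD 1 and so on). Nothing in the labels or methods says that the replicates came from separate cultures or that the KD libraries carried different shRNAs. The p-values therefore measure only the spread between these libraries, which may be technical.

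Total counts ranged from 53424071 to 69989087 per library, and the TMM scaling factors from 0.992 to 1.01. *IGF2BP3* lay at 106 to 112 CPM (counts scaled to the TMM-adjusted size of the library) in the controls and at 12.6 to 14.4 CPM in the KD libraries. All 7 epithelial and gastrointestinal markers were well detected, with a summed level of 6622 to 6682 CPM in controls and 6724 to 6828 CPM in KD libraries. Of these, *CDH17* (log2 fold change 0.44) and *EPCAM* (0.15) passed the test as higher and *KRT8* (-0.06) and *KRT18* (-0.07) as lower. The 12 markers of other cell types summed to 55.1 to 61.7 CPM and 83.6 to 84.1 CPM, of which all but 1.43 CPM at most came from *COL1A1* and *CD68*. Both passed the test as higher, while *COL1A2* had 0 counts and no other marker of that list exceeded 39 counts in any library. Whether these shifts have a part in the results was not tested.

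UGT enzymes sit in the membrane of the endoplasmic reticulum and move glucuronic acid from UDP-glucuronic acid onto bilirubin, hormones, drugs, dietary phenols and carcinogens, which makes them soluble enough to be excreted. The UGT1A enzymes come from a single locus in which each gene has a first exon and promoter of its own and is spliced to a common set of downstream exons. The first exon encodes the part of the enzyme that binds the substrate, and the common exons encode the part that binds UDP-glucuronic acid and the membrane anchor. *UGT1A1* conjugates bilirubin, *UGT1A6* small planar phenols and serotonin, *UGT1A3* and *UGT1A4* carboxylic acids, sterols and amines, and *UGT1A9* bulky phenols, whereas *UGT1A7*, *UGT1A8* and *UGT1A10* are known from the gut rather than the liver.

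In hg38 the family lies on the plus strand of chromosome 2, and all 9 genes end at position 233773300. In the order of the chromosome, *UGT1A8* starts at 233617633, *UGT1A10* at 233636448, *UGT1A9* at 233671898, *UGT1A7* at 233681901, *UGT1A6* at 233691607, *UGT1A5* at 233712907, *UGT1A4* at 233718736, *UGT1A3* at 233729042 and *UGT1A1* at 233760270. Exon 2 (233767034 to 233767165), exon 3 (233767849 to 233767936), exon 4 (233768220 to 233768439) and exon 5 (233772262 to 233773300) are common to all of them in GENCODE v44 and add up to 1479 bases. The last of these holds the end of the coding sequence and the 3′ UTR. First exons have 882 to 976 bases, of which 855 to 867 are coding. The read length sets what can be told apart. With 1 transcript of 5 exons taken per member, 57.9% to 61.6% of all 150-base windows in a member's transcript also occur in another member, against 0% of the windows that lie within a first exon. Over all annotated transcripts, only 538 of the 952 bases in the first exon of *UGT1A3* are exonic in no other gene on the same strand.

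**Figure D1:**
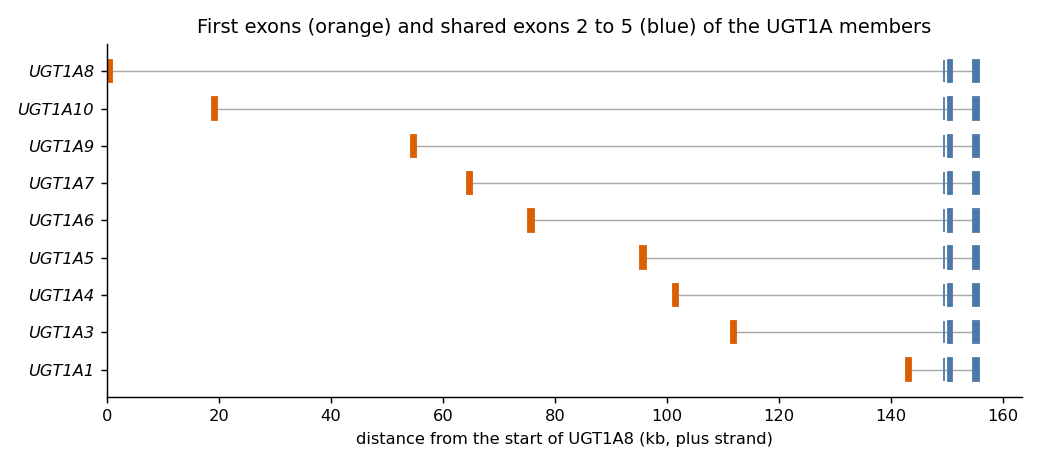
Position of the first exon (orange) and of the shared exons 2 to 5 (blue) of each UGT1A member, in kb from the start of *UGT1A8* along the plus strand. Every member has a first exon of its own and ends in the same 4 exons, which add up to 1479 bases.

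The splice junction shows where the members part. The 40 bases around it are given for the most abundant members and for pairs that are alike, with the end of exon 1 in lower case and the first 20 bases of the common exon 2 in capitals (plus strand, GENCODE v44).
UGT1A6: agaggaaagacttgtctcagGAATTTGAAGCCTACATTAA
UGT1A1: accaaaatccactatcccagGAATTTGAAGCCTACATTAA
UGT1A4: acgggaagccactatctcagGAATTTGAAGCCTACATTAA
UGT1A5: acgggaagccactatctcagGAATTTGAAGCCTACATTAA
UGT1A8: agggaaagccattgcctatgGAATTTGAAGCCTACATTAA
UGT1A10: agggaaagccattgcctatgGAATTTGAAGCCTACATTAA
*UGT1A4* and *UGT1A5* have the same 40 bases, and so do *UGT1A8* and *UGT1A10*, so that a read must reach further into exon 1 to separate them.

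The first exons fall into 2 groups of close relatives and 2 genes that stand alone. The coding parts of the first exons of *UGT1A7*, *UGT1A8*, *UGT1A9* and *UGT1A10* are 92.0% to 94.0% identical, with identical runs of up to 138 bases, and those of *UGT1A3*, *UGT1A4* and *UGT1A5* are 93.2% to 94.1% identical, with runs of up to 80 bases. *UGT1A1* shares 52.1% to 61.7% with the other members and *UGT1A6* 52.5% to 54.5%. The first 60 coding bases of the 4 members around *UGT1A10* are given below because the counts of 3 of them were nearly equal in most libraries, with the 13 positions at which they differ in capitals.
UGT1A7: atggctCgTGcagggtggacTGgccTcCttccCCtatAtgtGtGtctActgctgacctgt
UGT1A8: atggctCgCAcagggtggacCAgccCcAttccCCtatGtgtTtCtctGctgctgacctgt
UGT1A9: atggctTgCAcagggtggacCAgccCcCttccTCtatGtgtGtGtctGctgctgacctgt
UGT1A10: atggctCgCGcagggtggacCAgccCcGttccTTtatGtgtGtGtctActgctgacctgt

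The sum of the family's counts, most of which were those of *UGT1A6*, was lower in IGF2BP3 KD libraries, and its direction is not that of every member. The summed counts of the 9 members gave 566, 569 and 576 CPM in the 3 controls and 508, 501 and 505 CPM in the 3 KD libraries, so the groups did not overlap. The means were 570 ± 5.01 CPM and 504 ± 3.53 CPM (SD, n = 3 each), a log2 ratio of -0.18, which was also -0.18 without *UGT1A10*. No test was made on the sum, and 3 libraries against 3 cannot give an exact permutation p below 0.1. The sources used here do not say how reads in the shared exons were assigned, and a read counted for several members would enter the sum more than once. In KD 2, *UGT1A7*, *UGT1A8* and *UGT1A9* had 6 counts each beside 25949 of *UGT1A6*. At most 6 counts of that library can therefore have been given to all 9 members. Whether reads were counted for some of the members was not tested. In bulk RNA, fewer cells that express a gene and less RNA per cell cannot be told apart.

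Of the 8 members other than *UGT1A10*, 1 passed the test as lower (edgeR, adjusted p below 0.05), against 10.6% of all 19778 tested genes, and none passed as higher, against 9.87%. The count of higher members was also 0 at an unadjusted p below 0.05 and in DESeq2. Levels did not overlap between the groups for 2 of the 9 members, *UGT1A6* and the selected *UGT1A10*, against 35.8% of all tested genes. All 9 members passed the filter on low counts.

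*UGT1A6* (ENSG00000167165), the phenol-conjugating member, carried 79.1% to 83.7% of the family's counts in every library. It had 31250, 32879 and 28249 counts in the controls and 22618, 25949 and 25151 in the KD libraries, which correspond to 456, 472 and 482 CPM against 419, 418 and 399 CPM. Each KD library lay below each control. The log2 fold change was -0.19 (SE 0.03, 95% interval -0.27 to -0.11, adjusted p = 9.8e-04), a small shift measured with little spread. Exons of *UGT1A6* overlap those of 2 unnamed genes on the opposite strand over 1060 bases, and whether the counting used strand is not given in the sources used here. Those 2 genes had at most 77 counts in any library.

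*UGT1A1* (ENSG00000241635), the bilirubin-conjugating member, was the second most abundant. Its counts were 5402, 6561 and 4779 in the controls and 4508, 4856 and 4886 in the KD libraries, or 78.9, 94.2 and 81.6 CPM against 83.5, 78.2 and 77.5 CPM. The groups overlapped, and the log2 fold change of -0.09 (SE 0.06, interval -0.27 to 0.09, adjusted p = 0.39) did not pass the test. Without control 2 the value was -0.01 and without control 1 it was -0.14. The interval of *UGT1A1* includes the change of *UGT1A6*, and the difference between both was not tested. Together *UGT1A1* and *UGT1A6* held 94.4% to 99.5% of the family's counts.

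**Figure D2:**
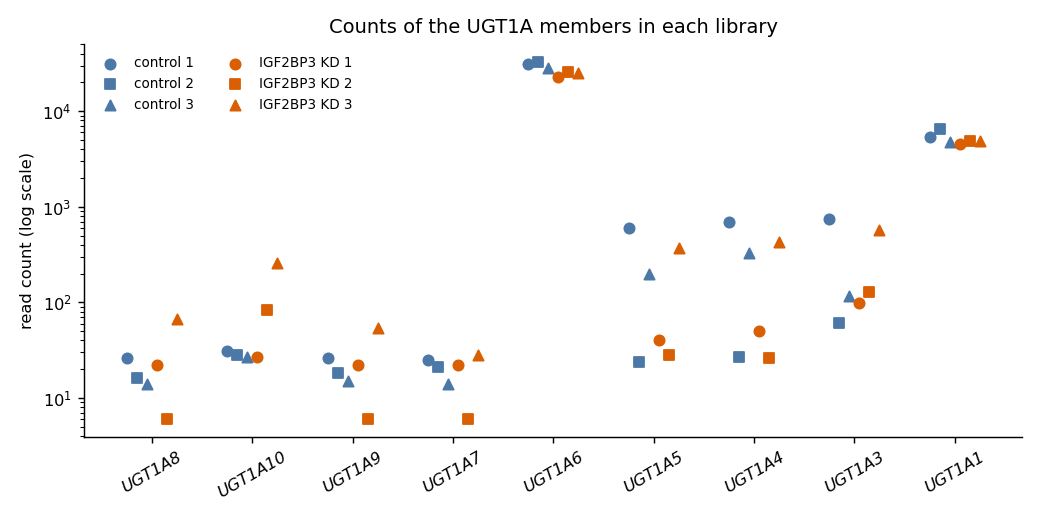
Read counts (log scale) of each UGT1A member in the 3 control libraries (blue) and the 3 IGF2BP3 KD libraries (orange), with 1 symbol per replicate number and members in chromosomal order. *UGT1A6* and *UGT1A1* are tight, *UGT1A3*, *UGT1A4* and *UGT1A5* are high in control 1 and KD 3, and *UGT1A10* is high in KD 2 and KD 3.

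*UGT1A3*, *UGT1A4* and *UGT1A5* differed far more between libraries of the same group than between the groups. *UGT1A3* had 749, 61 and 117 counts in the controls and 98, 128 and 574 in the KD libraries. *UGT1A4*, which conjugates amines, had 693, 27 and 329 counts against 50, 26 and 426. *UGT1A5*, a little studied member, had 596, 24 and 198 counts against 40, 28 and 367. In all 3 genes control 1 was the highest library and KD 3 the second highest, so both groups held high and low libraries.

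None of these 3 genes passed the test. The log2 fold changes were -0.09 for *UGT1A3* (SE 0.80, adjusted p = 0.96), -0.98 for *UGT1A4* (SE 0.98, adjusted p = 0.56) and -0.82 for *UGT1A5* (SE 0.97, adjusted p = 0.64), with intervals that reach from -2.30 to 2.12 for *UGT1A3* and from -3.70 to 1.73 for *UGT1A4*. Leaving out 1 library changed these values widely. Without control 1 the log2 fold change of *UGT1A3* was 1.60, that of *UGT1A5* 0.34 and that of *UGT1A4* -0.14, whereas without KD 3 they were -1.25, -2.80 and -3.01 in the same order.

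The spread of this group stands out among genes of similar abundance. The SD of log2 CPM within groups was 1.58 for *UGT1A3*, 2.24 for *UGT1A4* and 2.13 for *UGT1A5*, while the median over the 4486 tested genes with a mean of 50 to 500 counts was 0.247. These SDs were above those of 98.7%, 99.1% and 99.0% of these genes. The spread is not particular to this group, since the selected *UGT1A10*, in the same range of counts, had an SD of 1.05. That SD was above those of 98.0% of these genes. Within the controls *UGT1A4* ranged over 26.1-fold and within the KD libraries over 16.1-fold, against 1.06-fold and 1.05-fold for *UGT1A6*.

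The libraries with high *UGT1A3*, *UGT1A4* and *UGT1A5* were those with the lowest sum of *UGT1A1* and *UGT1A6* in their group. The 3 genes summed to 29.8, 1.61 and 11.0 CPM in the controls and to 3.48, 2.93 and 21.7 CPM in the KD libraries. *UGT1A1* and *UGT1A6* summed to 535, 566 and 564 CPM and to 503, 496 and 477 CPM. The sum of all 9 members varied less between libraries of a group (coefficient of variation 0.878% in controls, 0.700% in KD libraries) than the sum of these 2 abundant members (3.12% and 2.76%). These are 3 libraries a group, and the cause was not tested.

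**Figure D3:**
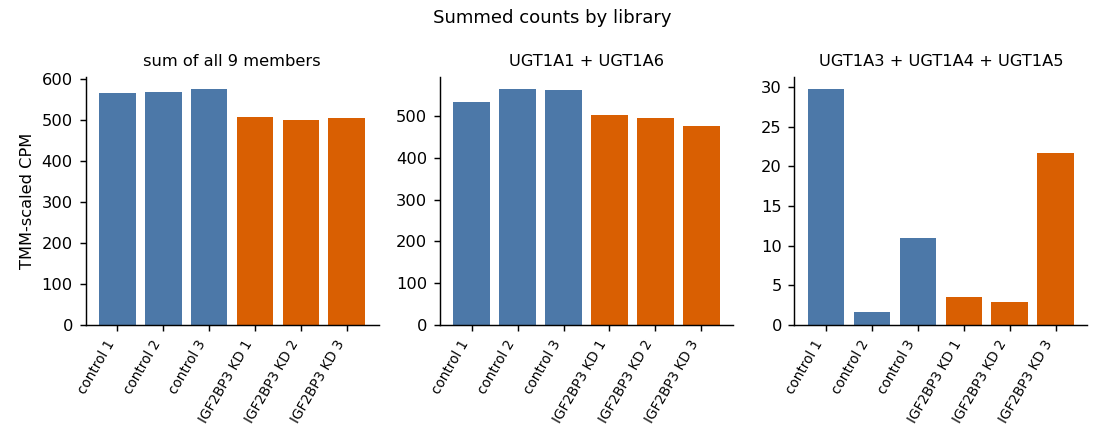
TMM-scaled CPM of 3 sums in each library, controls in blue and IGF2BP3 KD in orange, with an axis from 0 in each panel and 1 bar per library. The sum of all 9 members is nearly level within each group (566 to 576 CPM and 501 to 508 CPM), while the sum of *UGT1A3*, *UGT1A4* and *UGT1A5* runs from 1.61 to 29.8 CPM in the controls.

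*UGT1A7*, *UGT1A8* and *UGT1A9* had few counts, and nearly the same number as each other. *UGT1A7* had 25, 21 and 14 counts in the controls and 22, 6 and 28 in the KD libraries. *UGT1A8* had 26, 16 and 14 counts against 22, 6 and 67, and *UGT1A9* 26, 18 and 15 against 22, 6 and 54. In KD 1 and KD 2 the 3 genes had equal counts (22 and 6), in the controls they differed by at most 5 counts, and only in KD 3 did they part, by 39 counts.

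The log2 fold changes of these low members did not pass the test. They were 0.06 for *UGT1A7* (SE 0.61, adjusted p = 0.97), 0.88 for *UGT1A8* (SE 0.70, adjusted p = 0.45) and 0.60 for *UGT1A9* (SE 0.66, adjusted p = 0.61). The positive values of *UGT1A8* and *UGT1A9* rested on KD 3, without which they were -0.18 and -0.25. At such counts a difference of the size seen in *UGT1A6* was not detectable.

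*UGT1A10* (ENSG00000242515), a gut member that conjugates phenols and estrogens, was selected on its rise. It had 31, 28 and 27 counts in the controls and 27, 83 and 257 in the KD libraries, or 0.453, 0.402 and 0.461 CPM against 0.500, 1.34 and 4.08 CPM. KD 1 was at the level of the controls, in counts equal to the lowest of them, and the rise lay in KD 2 and KD 3, which differ from each other. The fitted log2 fold change was 2.17 (SE 0.60), and 1.07 without KD 3. The range within the KD libraries was 8.15-fold, against 1.15-fold within the controls.

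*UGT1A10* exceeded the highest of *UGT1A7*, *UGT1A8* and *UGT1A9* by 5, 7 and 12 counts in the controls, by 5 in KD 1, by 77 in KD 2 and by 190 in KD 3. The library with most *UGT1A10*, KD 3, thus also had most *UGT1A8* and *UGT1A9*, but KD 2, second in *UGT1A10*, had fewest of both. Whether reads of *UGT1A10* reached the counts of its close relatives was not tested. As a share of the family, *UGT1A10* held 0.0706% to 0.0800% of the counts in controls and 0.0985% to 0.808% in KD libraries.

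**Figure D4:**
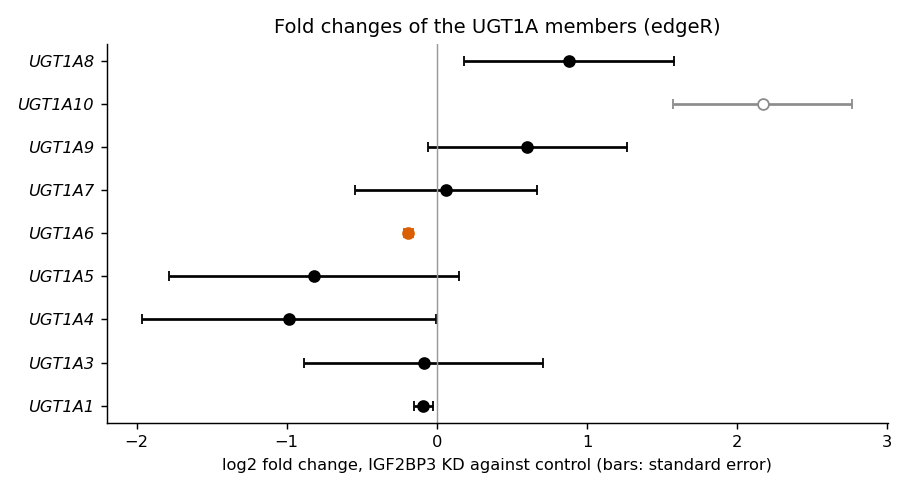
Log2 fold change of each UGT1A member between IGF2BP3 KD and control (edgeR), with bars of 1 standard error and members in chromosomal order. *UGT1A6* (orange) is the member that passed the test, at -0.19, and *UGT1A10* (open grey circle, 2.17) is shown as a description because its rise prompted the choice.

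Levels between members can be compared only per length, and were taken as CPM per kb of exonic bases that no other gene on the same strand shares. On this scale the control means were 163 for *UGT1A6*, 38.3 for *UGT1A1*, 8.56 for *UGT1A3*, 5.65 for *UGT1A4*, 4.35 for *UGT1A5*, 0.472 for *UGT1A10*, 0.334 for *UGT1A9*, 0.304 for *UGT1A8* and 0.120 for *UGT1A7*. The bases taken were 2512 for *UGT1A7* but 930 for *UGT1A8* and 892 for *UGT1A9*, and 538 for *UGT1A3* but 952 for *UGT1A4*. Before division by length, the control means of *UGT1A7*, *UGT1A8* and *UGT1A9* were alike (0.302, 0.283 and 0.298 CPM). That of *UGT1A3* (4.60 CPM) was below that of *UGT1A4* (5.37 CPM), so these places in the order rest on the length taken. In the controls *UGT1A6* (159 to 168) lay above *UGT1A1* (35.6 to 42.5), and *UGT1A1* above every other member. The ranges of *UGT1A3* (1.63 to 20.3), *UGT1A4* (0.407 to 10.6) and *UGT1A5* (0.362 to 9.14) overlapped, as did those of *UGT1A8* and *UGT1A9*.

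In the KD libraries the order of the first 2 was the same, at 143 for *UGT1A6* and 36.0 for *UGT1A1*. *UGT1A10* came to a mean of 2.12 (0.538 to 4.38), within the ranges of *UGT1A4* (0.440 to 7.10) and *UGT1A5* (0.474 to 6.12). These levels take all counts as coming from a member's own bases, which the sources used here neither state nor deny.

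Of the 4 pseudogenes in the locus, *UGT1A11P*, *UGT1A12P* and *UGT1A13P* had 0 counts in every library. *UGT1A2P* had 26, 17 and 7 counts in the controls and 23, 21 and 14 in the KD libraries, with a log2 fold change of 0.39 (SE 0.58, adjusted p = 0.72). None of the 6 tested genes around the locus passed the test (0 of 6 also at an unadjusted p below 0.05 and in DESeq2). Over all tested genes, 10.6% were called lower and 9.87% higher, so 0 of 6 does not show that these neighbours are unchanged. *USP40* passed as lower when KD 3 was left out. *DNAJB3*, on the minus strand between the first exons of *UGT1A3* and *UGT1A1*, was at 0.486 and 0.487 CPM.

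Of 13 genes of the UGT2, UGT3 and UGT8 families, 3 could be tested and 3 had 0 counts throughout, and *UGT8* was the abundant one. *UGT8*, which makes the galactolipids of myelin and does not use glucuronic acid, rose from 160 ± 6.68 to 200.1 ± 3.61 CPM (log2 fold change 0.32, SE 0.04, adjusted p = 9.1e-05). *UGT2B15* was at 1.29 and 0.854 CPM and did not pass (adjusted p = 0.14).

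Among 6 genes listed for making, transport or other use of UDP-glucuronic acid, or for cleaving glucuronides, 3 rose and none fell. The count of lower genes was also 0 at an unadjusted p below 0.05 and in DESeq2. Over all tested genes, 9.87% were called higher and 10.6% lower. *SLC35D1*, which carries UDP-glucuronic acid into the endoplasmic reticulum, went from 59.5 ± 2.40 to 82.8 ± 1.84 CPM (log2 fold change 0.48, SE 0.05, adjusted p = 3.1e-05). Its relative *SLC35D2* rose by 0.43 (SE 0.07, adjusted p = 0.0016), and *UGP2*, which makes UDP-glucose, by 0.13 (SE 0.04, adjusted p = 0.036), a call that was kept when control 1 was left out and lost when any other library was. *UGDH*, the enzyme that oxidises UDP-glucose to UDP-glucuronic acid, was at 128 and 132 CPM (adjusted p = 0.62), and *GUSB*, the lysosomal glucuronidase, at 71.8 and 71.3 CPM (adjusted p = 0.93). The median log2 fold change of the 6 was 0.09, beside 0.01 over all tested genes.

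Of 7 transporters of glucuronides, 5 were tested, and 1 was lower and 2 were higher, against 10.6% and 9.87% of all tested genes. The efflux pumps *ABCC2* (127 and 134 CPM, adjusted p = 0.14) and *ABCC3* (593 and 595 CPM, adjusted p = 0.91) did not pass. *ABCC4*, an efflux pump of the same family, fell by 0.36 on the log2 scale (SE 0.05, adjusted p = 7.6e-04). The efflux pump *ABCG2* rose by 0.14 (SE 0.04, adjusted p = 0.030), a call lost when control 2 or any KD library was left out, and the uptake carrier *SLCO2B1* by 0.40 (SE 0.04, adjusted p = 4.9e-05). Among 4 genes that form bilirubin from heme, *HMOX1*, the heme oxygenase that opens the heme ring, rose from 23.5 ± 1.47 to 31.7 ± 1.61 CPM (log2 fold change 0.43, SE 0.07, adjusted p = 9.7e-04) and the other 3 did not pass.

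Of 22 transcription regulators known from UGT1A promoters, 20 were tested, 3 fell and 5 rose, with a median log2 fold change of 0.08. Among all tested genes 10.6% were called lower and 9.87% higher. *PPARA*, a receptor for fatty acids, rose by 0.46 (SE 0.05, adjusted p = 5.1e-05). *CDX2*, a master regulator of the intestinal epithelium, rose by 0.50 (SE 0.09, adjusted p = 0.0025). The vitamin D receptor *VDR* (0.21) and the receptor partner *RXRA* (0.12) also rose.

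The 3 that fell were *NFE2L2*, which encodes NRF2 (log2 fold change -0.16, SE 0.03, adjusted p = 0.0035), *FOXA1* (-0.25, adjusted p = 0.013) and the corepressor *NCOR1* (-0.09, adjusted p = 0.024). *AHR*, the aryl hydrocarbon receptor that responds to polycyclic compounds, was at 316 and 298 CPM (log2 fold change -0.09, SE 0.04, adjusted p = 0.12), and it passed in DESeq2, which called 11 of this list. *NR1I2*, which encodes the pregnane X receptor, lay at 0.839 and 1.19 CPM and did not pass (adjusted p = 0.45). Without KD 2 the calls came down to 5, among them *NFE2L2* as lower and *PPARA*, *VDR* and *CDX2* as higher.

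The other known targets of these regulators moved in part, and their calls stand beside 10.6% of all tested genes called lower and 9.87% called higher. Of 6 tested AHR targets 2 fell and none rose, against 1 that was higher at an unadjusted p below 0.05 and 0 in DESeq2. They were *ALDH3A1*, an aldehyde dehydrogenase (from 3234 ± 110.0 to 2484 ± 49.7 CPM, log2 fold change -0.38, SE 0.03, adjusted p = 2.1e-06), and the quinone reductase *NQO1* (from 1683 ± 23.8 to 1308 ± 8.84 CPM, log2 fold change -0.36, SE 0.02, adjusted p = 4.4e-07). The cytochromes *CYP1A1* (4.59 and 6.16 CPM, adjusted p = 0.091) and *CYP1B1* (19.5 and 17.3 CPM, adjusted p = 0.26) did not pass.

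Of 12 NRF2 targets 6 fell and 3 rose in DESeq2, and 4 were higher at an unadjusted p below 0.05 in edgeR. With adjusted p in edgeR 5 fell and 1 rose, beside 10.6% and 9.87% of all tested genes. Besides *NQO1* those that fell were *TXNRD1*, a thioredoxin reductase (log2 fold change -0.42, adjusted p = 2.0e-06), *SLC7A11*, the cystine carrier (-0.42, adjusted p = 1.2e-04), *GCLC* (-0.19, adjusted p = 0.0013) and *SRXN1* (-0.19, adjusted p = 0.0049), while *HMOX1* rose. The pregnane X and constitutive androstane receptor targets held no call among 7 tested genes (0 also at an unadjusted p below 0.05 and in DESeq2), with *CYP3A5* at 151 and 146 CPM (adjusted p = 0.30). *NQO1* stands in both the AHR and the NRF2 list, and these lists were put together with results of these data known.

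Promoter windows of 300 bases around a start site (RefSeq, GRCh38.p14) were found for 8 of the 9 members. The member without a window was *UGT1A10*, so its promoter is not described. The letters GCGTG, the core of the element bound by AHR with its partner ARNT, occurred on either strand in 6 of the 9 windows of these members, among them 1 of the 2 windows of *UGT1A6*, against 36.5% of all 35116 promoter windows. The match lies in the same stretch of letters in *UGT1A8* and *UGT1A9*, and in a similar one in *UGT1A7*. The windows of *UGT1A3* and *UGT1A4* also end in the same stretch with a match. Windows of close relatives are not independent, so these shares do not measure an enrichment. TGACNNNGC, the core of the antioxidant response element, occurred in 2 of the 9 windows, in *UGT1A6* and in *UGT1A5*, against 13.3% of all windows. A match of letters is a description and not a site.

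**Figure D5:**
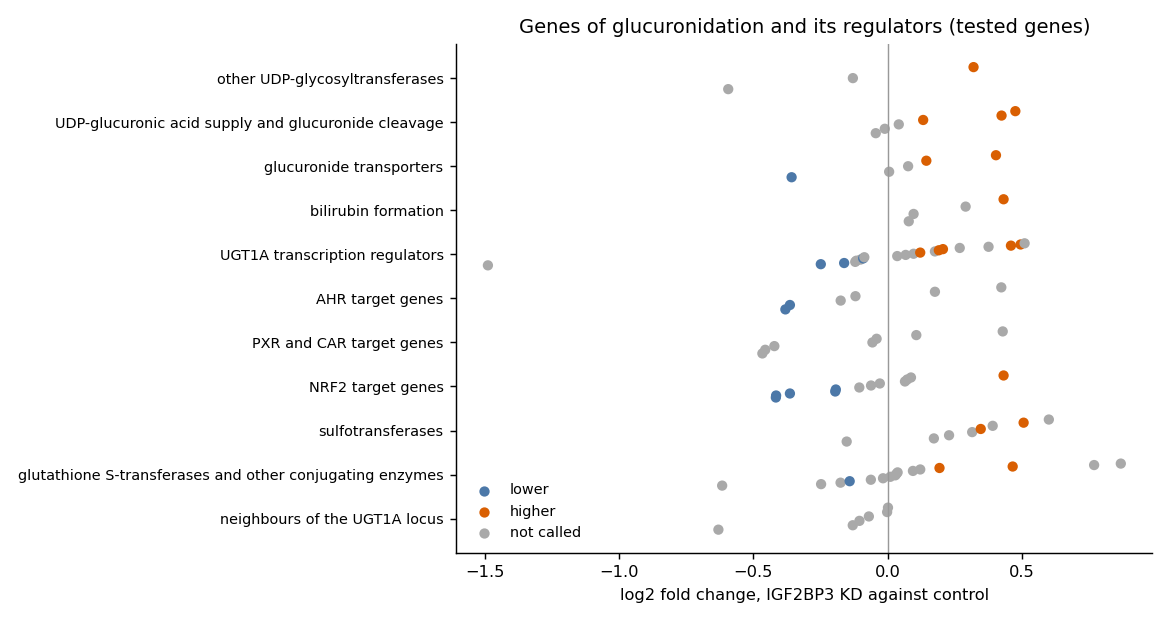
Log2 fold change between IGF2BP3 KD and control of the tested genes in 11 lists (pseudogenes and cell type markers left out), 1 point per gene, with genes that passed the test as lower in blue, as higher in orange and the others in grey. Some genes, such as *NQO1* and *HMOX1*, stand in more than 1 list. The genes shown that passed the test lie between -0.42 and 0.51.

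Of 8 tested sulfotransferases, which compete with UGT1A enzymes for phenols and steroids, 2 rose and none fell (1 at an unadjusted p below 0.05, 0 in DESeq2). *SULT1B1*, a thyroid hormone and phenol sulfotransferase of the gut, rose from 101 ± 2.03 to 143 ± 5.13 CPM (log2 fold change 0.51, SE 0.04, adjusted p = 4.7e-06), and *SULT1E1*, the estrogen sulfotransferase, by 0.35 (SE 0.06, adjusted p = 0.0027). These shares stand beside 9.87% of all tested genes called higher and 10.6% called lower. Of 16 tested glutathione, acetyl and methyl conjugating enzymes, 1 fell and 2 rose, and those that rose were the glutathione transferases *GSTA4* (0.47, adjusted p = 5.9e-04) and *MGST3* (0.19, adjusted p = 0.0060).

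The genes whose log2 CPM over the 6 libraries was most like that of *UGT1A6*, among 14286 genes compared, were *GABPA* (Pearson r = 0.997), *PAF1* (0.997), *NUDT14* (0.995), *RASSF10* (0.993) and *PAXIP1* (0.993). Their log2 fold changes lay between -0.39 and -0.12. The genes most like *UGT1A10* were *PTRHD1* (0.994), *FAT1* (0.991), *SLC28A3* (0.988), *FOCAD* (0.985) and *GAS6-AS1* (0.983), with log2 fold changes of 0.03 to 0.13, far smaller than that of *UGT1A10*. The points share their libraries and depth, and with 6 points 325 genes exceeded an r of 0.95 with *UGT1A6* and 31 with *UGT1A10*.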

How the data were processed

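The authors trimmed paired reads of 150 bases (fastp), aligned them to hg38 with HISAT2 at default settings and used featureCounts to count them per gene. The deposited table holds the raw counts, not normalized. Versions, the annotation release, the strand setting and the handling of reads shared by overlapping genes are not given in the sources used here. Libraries were directional and poly(A)-selected. From the table, 132 repeated entries of 44 identifiers were left out. The quasi-likelihood test of edgeR (version 4.0.16, R 4.3.3) was fitted to all 6 libraries after filterByExpr (at least 10 counts, total of 15) and TMM scaling, and p-values were adjusted over 19778 genes by Benjamini-Hochberg with a threshold of 0.05. The study named DESeq2, which was run as an alternative (version 1.42.0), besides RLE scaling, other count filters, a replicate block, robust estimation and each library left out in turn. The last was added for the gene lists after the data were seen. The code was tested on simulated data. The SE was taken as the size of the log2 fold change over the square root of the test's F. Intervals use this SE and 4 residual degrees of freedom. The p-values use the moderated degrees of freedom of edgeR, so intervals and p-values do not rest on the same reference. At low counts, precision is limited by the counts themselves. Gene models are GENCODE v44 on hg38.

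The members and gene lists were chosen with earlier results of these data known. Genes are named if they are UGT1A members or pseudogenes, *IGF2BP3*, called list members with a mean of at least 1 CPM (at most 4 per list by smallest p), genes needed to read a list, or the 5 most correlated with *UGT1A10* and with *UGT1A6*. *VDR*, *RXRA*, *FOXA1*, *NCOR1*, *GCLC*, *SRXN1*, *UGT2B15*, *USP40*, *COL1A1*, *COL1A2*, *CD68*, *CDH17*, *EPCAM*, *KRT8* and *KRT18* were named after their values were seen. Some genes of the lists are not reported here by name.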

Additional observations from a re-analysis of the deposited data

How the results depend on the processing

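The count of members that passed the test was 1 (*UGT1A6*) under every alternative run, and its log2 fold change lay between -0.21 and -0.17 when each library was left out in turn, with an adjusted p of at most 0.0076. The labels' replicate numbers did not pair the libraries (correlations of deviations -0.05, -0.09 and -0.06), so the replicate block stands only as an alternative. With the replicate block, 2026 genes were lower and 1875 higher, against 2088 and 1953 without it, and *UGT1A3* (0.39) and *UGT1A7* (-0.11) turned direction without passing the test in either fit. Without the low-count filter 1549 genes were lower and 1139 higher. Leaving out 1 library gave log2 fold changes of -0.14 to -0.01 for *UGT1A1*, -3.01 to -0.14 for *UGT1A4* and -1.25 to 1.60 for *UGT1A3*. The range was -2.80 to 0.34 for *UGT1A5*, -0.27 to 0.49 for *UGT1A7* and -0.18 to 1.38 for *UGT1A8*. It was -0.25 to 1.08 for *UGT1A9* and 1.07 to 2.62 for *UGT1A10*. In these fits 5 to 9 regulators and 0 to 1 neighbours of the locus were called. Of the genes listed for UDP-glucuronic acid and glucuronide cleavage, 2 to 3 were called (*UGP2* lost in 5 of 6 fits). Of the transporters, 2 to 3 were called (*ABCG2* lost in 4 of 6). The sum of the 9 members kept its direction (-0.19 to -0.17). The cause of these shifts was not tested. With at least 10 counts in every library, *UGT1A7*, *UGT1A8* and *UGT1A9* left the fit. Their 6 to 67 counts limit what can be seen of these members.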
